A study of Mus musculus with 24 samples.

Results

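Histone genes of the 4 clustered loci were described in bone marrow mononuclear cells of mice carrying Shp2 E76K, an activating change in a tyrosine phosphatase. The members were all rows of the count table whose symbol begins with Hist1h, Hist2h, Hist3h or Hist4h, which gave 68 of 24421 genes. Of these, 6 code for linker histone H1, 18 for H2A, 19 for H2B, 12 for H3 and 13 for H4, as read from the symbol. The series asks about BTK and the p110-delta form of PI3K in juvenile myelomonocytic leukaemia. Its 4 groups had 3 specimens each: mice given both inhibitors (the combination, specimens 10 to 12), mice given the PI3K p110-delta inhibitor ACP319 (specimens 7 to 9), mice given the BTK inhibitor ACP196 (specimens 4 to 6), and mice given vehicle (specimens 1 to 3). Treatment lasted 3 weeks, and every group, the vehicle mice included, carried Shp2 E76K. Mice without the mutation were not analysed here, and the sources used here give neither the driver of the mutation, nor the age of the mice, nor whether each specimen is 1 mouse.

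Core histones H2A, H2B, H3 and H4 form the protein spool of the nucleosome, and H1 binds the DNA where it enters and leaves. Clustered histone genes are switched on together in S phase, when new DNA has to be packaged, so their mRNA is abundant in dividing cells and scarce in resting ones. Most of these mRNAs have no intron and no poly(A) tail: they end just after a stem-loop that is bound by the protein Slbp and cut with the help of the U7 small nuclear RNA. Some of the genes also give a polyadenylated transcript. In marrow, where progenitors of several lineages divide, both forms can be present. The libraries were made with a kit that primes cDNA from poly(A) tails (SMART-Seq v4), so members without a tail may be poorly caught and the values below are of what was caught.

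The stem-loop is shown first, since an mRNA that ends just after it has no poly(A) tail to prime from. The pattern searched was 16 bases long, with GG, any 2 bases, CTT, any base, T, any base, AG, any 2 bases and CC, on the sense strand of the GENCODE M21 transcripts (GRCm38, the mm10 build). It was present in the transcripts of 45 of the 68 members and in 161 of 58725 protein-coding transcripts of other genes, or 0.274%. Some members without a match have a short annotated transcript. Hist1h2ai has 393 bases there and 448 in the count table, and Hist1h4k has 312 and 409. A missing match therefore does not show that the gene lacks the stem-loop. Members differ mainly in the stem and in the base before AG in the loop. In the lines below the pattern is in capitals, with 5 bases on each side.
Hist1h1c: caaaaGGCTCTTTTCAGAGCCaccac
Hist3h2a: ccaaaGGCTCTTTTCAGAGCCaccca
Hist1h2bb: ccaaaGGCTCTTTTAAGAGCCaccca
Hist1h3g: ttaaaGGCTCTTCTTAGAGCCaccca
Hist1h4d: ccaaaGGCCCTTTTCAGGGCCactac
Hist1h4b: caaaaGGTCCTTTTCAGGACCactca
Hist1h4i: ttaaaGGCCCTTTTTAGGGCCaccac
Hist2h4: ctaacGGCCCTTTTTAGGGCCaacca
The capitals lie at chr13:23739512-23739527 for Hist1h1c, chr11:58955172-58955187 for Hist3h2a, chr13:23747203-23747218 for Hist1h2bb, chr13:23535889-23535904 for Hist1h3g, chr13:23581950-23581965 for Hist1h4d and chr13:23757366-23757381 for Hist1h4b, all on the plus strand. For Hist1h4i they lie at chr13:22040966-22040981 and for Hist2h4 at chr3:96262939-96262954, both on the minus strand. The form of Hist1h1c and Hist3h2a was found in 25 members, of types H1, H2A, H2B and H3. The form of Hist1h4d was found in 7 members, all of type H4. In 43 of the 44 members whose gene model in the count table holds the pattern, that model ends within 10 bases of it. Where such a member has a longer polyadenylated transcript, reads from the part past the stem-loop would fall outside the counted gene.

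Genomic position also sorted the members. The cluster on chromosome 13 (chr13:21715713-23934913) held 54 of them, the cluster on chromosome 3 (chr3:96219916-96270192) held 10, the cluster on chromosome 11 (chr11:58948911-58955192) held 3, and Hist4h4 lay alone at chr6:136803993-136804431. RefSeq promoters (GRCm38.p6, 250 bases before to 50 after the start) were found for 61 of the 68 members. Motifs were searched on both strands: ATTTGCAT, the octamer known from H2A and H2B promoters, CCAAT, and TATAAA. The octamer was in the promoters of 7 of 17 H2A and 7 of 16 H2B members and of 0 of 6 H1, 0 of 10 H3 and 0 of 12 H4 members, against 1.74% of the 32851 promoters in the table. CCAAT was in 52 of the 61, which were all matched H1, H2A, H2B and H3 members and 3 H4 members (Hist1h4c, Hist1h4d and Hist1h4a), against 37.4% of the table. TATAAA was in 35 of 61, against 13.6% of the table. The promoters of the highest H2A, H3 and H4 member for which one was found show the difference, with matches on either strand in capitals.
Hist3h2a: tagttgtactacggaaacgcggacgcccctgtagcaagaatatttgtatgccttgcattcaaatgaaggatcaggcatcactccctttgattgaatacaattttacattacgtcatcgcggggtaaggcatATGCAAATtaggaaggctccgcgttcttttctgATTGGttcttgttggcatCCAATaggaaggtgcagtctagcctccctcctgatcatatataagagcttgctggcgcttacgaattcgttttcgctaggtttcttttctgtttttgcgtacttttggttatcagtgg
Hist1h3c: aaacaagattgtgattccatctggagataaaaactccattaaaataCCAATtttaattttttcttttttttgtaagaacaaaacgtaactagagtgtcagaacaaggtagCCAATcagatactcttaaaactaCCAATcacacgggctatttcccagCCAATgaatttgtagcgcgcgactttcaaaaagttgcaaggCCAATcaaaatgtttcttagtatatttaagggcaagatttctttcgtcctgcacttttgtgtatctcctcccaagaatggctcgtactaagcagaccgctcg
Hist1h4i: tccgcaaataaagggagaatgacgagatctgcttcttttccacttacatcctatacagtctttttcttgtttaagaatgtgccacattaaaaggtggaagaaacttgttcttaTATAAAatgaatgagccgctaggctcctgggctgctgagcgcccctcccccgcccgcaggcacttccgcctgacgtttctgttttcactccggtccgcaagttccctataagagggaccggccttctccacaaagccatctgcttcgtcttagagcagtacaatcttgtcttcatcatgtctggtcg
These windows lie at chr11:58954435-58954734 on the plus strand for Hist3h2a, and on the minus strand at chr13:23745472-23745771 for Hist1h3c and chr13:22041313-22041612 for Hist1h4i. A match is a run of letters in the window and not a measured binding site.

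Counts came to between 8993950 (BTK inhibitor specimen 5) and 22154833 (vehicle specimen 2) per specimen, and the histone members took 0.00822% to 0.0245% of them. Of the 68 members, 48 passed the filter on low counts and were tested among 12742 genes: 5 of type H1, 9 of H2A, 13 of H2B, 9 of H3 and 12 of H4. A further 11 were below the filter and 9 had no count in any specimen, 8 of which are annotated at 2 places that overlap a twin gene (Hist1h2ao, Hist1h2ap, Hist1h2bq, Hist1h2br, Hist2h2aa1, Hist2h2aa2, Hist2h3c1 and Hist2h3c2) while the ninth is the testis gene Hist1h2aa. In vehicle mice 9 of the 48 tested members were below the filter's minimum (10 counts in a library of median size) in all 3 specimens, and only 20 reached it in all 3. The filter asked for the minimum in at least 3 specimens of any group. The 9 therefore passed through the treated groups, and members that reached it in only some vehicle specimens needed treated specimens as well. The medians, signs, unadjusted-p counts and non-overlap counts over tested members below are thus descriptions. The members are near copies of each other: over the 48 tested members a median of 52.7% of the 50-base windows of a transcript also occurred in another member, and in 27 members more than 50% did. Reads from such windows can be assigned to the wrong copy or to none, so single members are less certain than their sums. In BTK inhibitor specimen 5 the ribosomal RNA precursor Rn45s took 15.4% of all counts, against 0.203% to 0.773% in the other specimens. Defining haemoglobin genes of red cells (Hba-a1, Hba-a2, Hbb-bt and Hbb-bs) were at 0 in every specimen although other red-cell genes were counted, and mature neutrophil genes took 60190 to 216100 CPM in sum, where CPM is the count scaled to a common library size. In these mixed cells a smaller share of dividing cells and less histone RNA per cell cannot be told apart.

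Per-length levels (CPM per kilobase of gene, RPKM) were led by a few members. Among H1 genes, Hist1h1c, a linker histone subtype found in most tissues, had 64.6 ± 34.5 RPKM with the combination, 73.2 ± 7.62 with the PI3K inhibitor, 52.6 ± 25.9 with the BTK inhibitor and 48.6 ± 17.1 with vehicle (SD, n = 3 each). Hist1h4i, the highest H4 gene, had 37.9 ± 8.96 RPKM with the combination, 77.2 ± 35.2 with the PI3K inhibitor and 24.99 ± 4.00 with vehicle. Its level with the BTK inhibitor was 61.0, 79.2 and 27.8 RPKM in specimens 4 to 6. Hist1h2bc, the highest H2B gene, had 17.3 ± 1.05 RPKM with the combination, 35.2 ± 9.40 with the PI3K inhibitor, 35.4 ± 15.1 with the BTK inhibitor and 17.4 ± 7.18 with vehicle. These 3 genes led every other member in mean level over the specimens, and H3 genes were the lowest type by their leading member: Hist1h3c averaged 2.84 RPKM over the 12 specimens, Hist1h3e 2.11 and Hist1h3g 2.04. In H2A, Hist3h2a averaged 12.1 RPKM, Hist2h2ac 4.06 and Hist1h2ac 3.88, but without BTK inhibitor specimen 5 Hist2h2ac averaged 2.08, below Hist1h2ac at 3.67 and Hist1h2ae at 2.35. The next members were Hist1h1e with 8.01 and Hist1h1d with 7.92 RPKM in H1, Hist3h2ba with 4.46 and Hist1h2bg with 3.79 in H2B, and Hist2h4 with 18.0 and Hist1h4c with 7.24 in H4. The level of Hist2h4 also rests on that library: it had 56.3 ± 86.2 RPKM with the BTK inhibitor and 1.62 ± 0.672 with vehicle, and averaged 5.47 RPKM over the series without specimen 5. By count, Hist1h1c gave 28.2% of all histone reads, Hist1h2bc 12.0%, Hist1h4i 11.4% and Hist2h2be 5.21%.

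Summed by type, histone RNA was on average higher in each treated group than in vehicle mice, for all 5 types. H1 summed to 45.7, 94.8 and 46.3 CPM with the combination, 76.0, 84.2 and 70.2 with the PI3K inhibitor, 74.2, 82.2 and 48.4 with the BTK inhibitor and 50.9, 27.1 and 51.3 with vehicle. Only the PI3K inhibitor specimens all lay above the vehicle range for H1, and combination specimens 10 and 12 and BTK inhibitor specimen 6 lay inside it. H4 summed to 25.2, 33.0 and 18.3 CPM with the combination, 30.0, 63.3 and 65.8 with the PI3K inhibitor, 42.3, 143.2 and 19.8 with the BTK inhibitor and 16.9, 12.4 and 18.0 with vehicle. For H4 no treated specimen reached down into the vehicle range, though combination specimen 12 and BTK inhibitor specimen 6 lay just above it. The core types H2A, H2B and H3 showed one pattern: the PI3K inhibitor and BTK inhibitor specimens all lay above the vehicle range, while combination specimen 12 lay inside it. H3 averaged 5.74 ± 1.71 CPM with the combination, 8.98 ± 1.47 with the PI3K inhibitor, 11.1 ± 6.90 with the BTK inhibitor and 3.90 ± 0.514 with vehicle (SD, n = 3 each), and the BTK inhibitor mean was 7.10 CPM without specimen 5. H2A averaged 13.7 ± 2.81 CPM with the combination, 18.7 ± 5.04 with the PI3K inhibitor, 23.2 ± 11.1 with the BTK inhibitor and 10.7 ± 1.32 with vehicle, and H2B averaged 40.1 ± 9.14, 57.2 ± 11.1, 53.8 ± 15.3 and 29.1 ± 6.04 CPM in the same order of groups. All 68 members together came to 147.3 ± 47.4 CPM with the combination, 214.7 ± 38.6 with the PI3K inhibitor, 224.8 ± 111.1 with the BTK inhibitor and 102.6 ± 24.5 with vehicle. Without Hist1h1c the sums were 100.4 ± 24.8 CPM with the combination, 161.6 ± 34.5 with the PI3K inhibitor, 186.6 ± 120.0 with the BTK inhibitor and 67.3 ± 12.1 with vehicle. The BTK inhibitor specimens 4 to 6 held 143.3, 322.3 and 94.3 CPM of that sum, and averaged 118.8 CPM without specimen 5. A fit of the counts summed by type was also run, and no p-value from it is given here.

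**Figure D1:**
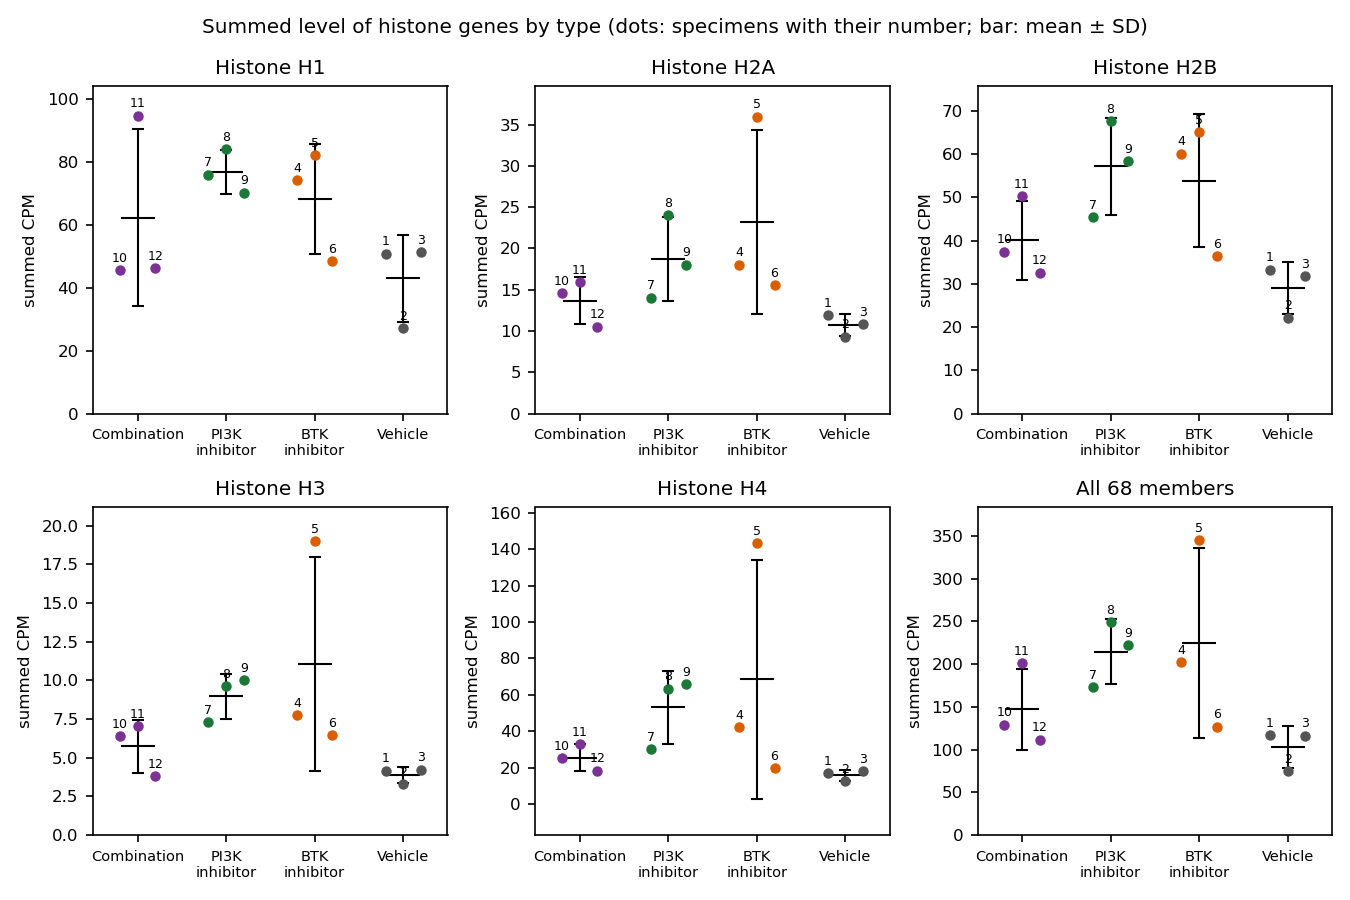
Summed CPM (vertical axes, linear) of the members of each histone type and of all 68 members, by group, with 1 numbered dot per specimen and bars for the mean ± SD of 3 specimens. BTK inhibitor specimen 5 stands highest for H2A, H3 and H4, with 143.2 CPM for H4, and the vehicle specimens lie at or below 18.0 CPM for H4.

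With the PI3K inhibitor, 6 of the 48 tested histone genes rose against vehicle and none fell: 2 linker histone genes (Hist1h1b, Hist1h1d), 2 H2B genes (Hist1h2bn, Hist3h2ba) and 2 H4 genes (Hist1h4b, Hist1h4i), by log2 differences of 1.62 to 2.24. The 6 are 12.5% of the tested members, read against 4.84% of all tested genes called higher, 5.82% called lower, 10.7% called in either direction, and 18.3% called higher among tested genes of at most 1000 bases. Hist1h1b had 5.77, 6.75 and 4.81 CPM with the PI3K inhibitor, against 1.34, 1.02 and 1.30 CPM with vehicle, and the groups were far apart. Its log2 difference was 2.24 ± 0.571 (SE; edgeR quasi-likelihood, adjusted p = 0.0407). Hist1h1d, another linker histone subtype, had 10.4, 6.35 and 6.40 CPM with the PI3K inhibitor, against 2.59, 1.92 and 2.85 CPM with vehicle, without overlap, and differed by 1.65 ± 0.478 (edgeR adjusted p = 0.0455). Hist1h4b, which codes for the same type of core histone as Hist1h4i, had 1.49, 2.27 and 2.03 CPM with the PI3K inhibitor, against 0.492, 0.327 and 0.648 CPM with vehicle. The groups did not overlap, and the difference was 1.96 ± 0.473 (edgeR adjusted p = 0.0406). Hist1h4i had 15.6, 34.4 and 43.3 CPM with the PI3K inhibitor, against 10.6, 8.25 and 11.3 CPM with vehicle. Specimen 7 was closest to vehicle, the groups did not overlap, and the difference was 1.62 ± 0.415 (edgeR adjusted p = 0.0407).

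In H2B, Hist1h2bn had 1.02, 2.07 and 1.08 CPM with the PI3K inhibitor, against 0.492, 0.368 and 0.346 CPM with vehicle, and differed by 1.76 ± 0.443 (edgeR adjusted p = 0.0407). Its groups did not overlap. Hist3h2ba, an H2B gene of the chromosome 11 cluster, had 1.10, 4.14 and 5.00 CPM with the PI3K inhibitor, against 1.12, 0.898 and 1.08 CPM with vehicle. Specimen 7 lay inside the vehicle range while specimens 8 and 9 were far above it, and the difference was 1.71 ± 0.485 (edgeR adjusted p = 0.0447). Of the other members with high levels in their type, Hist1h1c differed by 0.59 (edgeR adjusted p = 0.317), Hist3h2a by 0.40 (0.308), Hist1h2bc by 1.02 (0.0850) and Hist2h4 by 2.73 (0.110), and none of these passed. All 48 fitted differences were above 0, and 33 members had an unadjusted p under 0.05 (35.7% of all genes). Among tested genes of at most 1000 bases, 964 of 1023 were above 0, with a median of 1.107. In 41 members (85.4%) the specimens all lay above the vehicle specimens, against 24.9% of all tested genes and 66.8% of those of at most 1000 bases. The 9 members that passed the filter only through treated groups, and those that needed treated specimens in part, are among the 48 in these counts. Of the 6 called, Hist1h2bn (vehicle counts of 11, 9 and 8) and Hist1h4b (11, 8 and 15) needed treated specimens in part. The values of Hist1h2bn and Hist1h4b are therefore descriptions. The median over tested members was 1.41, with 1.65 for H1, 1.18 for H2A, 1.20 for H2B, 1.22 for H3 and 1.87 for H4, beside -0.01 over all tested genes. The 6 calls lie just under the threshold of 0.05. No member was called when vehicle specimen 1, 2 or 3, PI3K inhibitor specimen 8 or 9, or combination specimen 10, 11 or 12 was left out. The share of all genes called in those fits is not given here, so the 0 is not read as a result about histone genes. All groups share the estimate of spread, and there were 27 calls without BTK inhibitor specimen 5 (33.8% of all genes), 21 without specimen 6 (26.2%) and 26 when the fit held only the groups compared (32.9%).

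**Figure D2:**
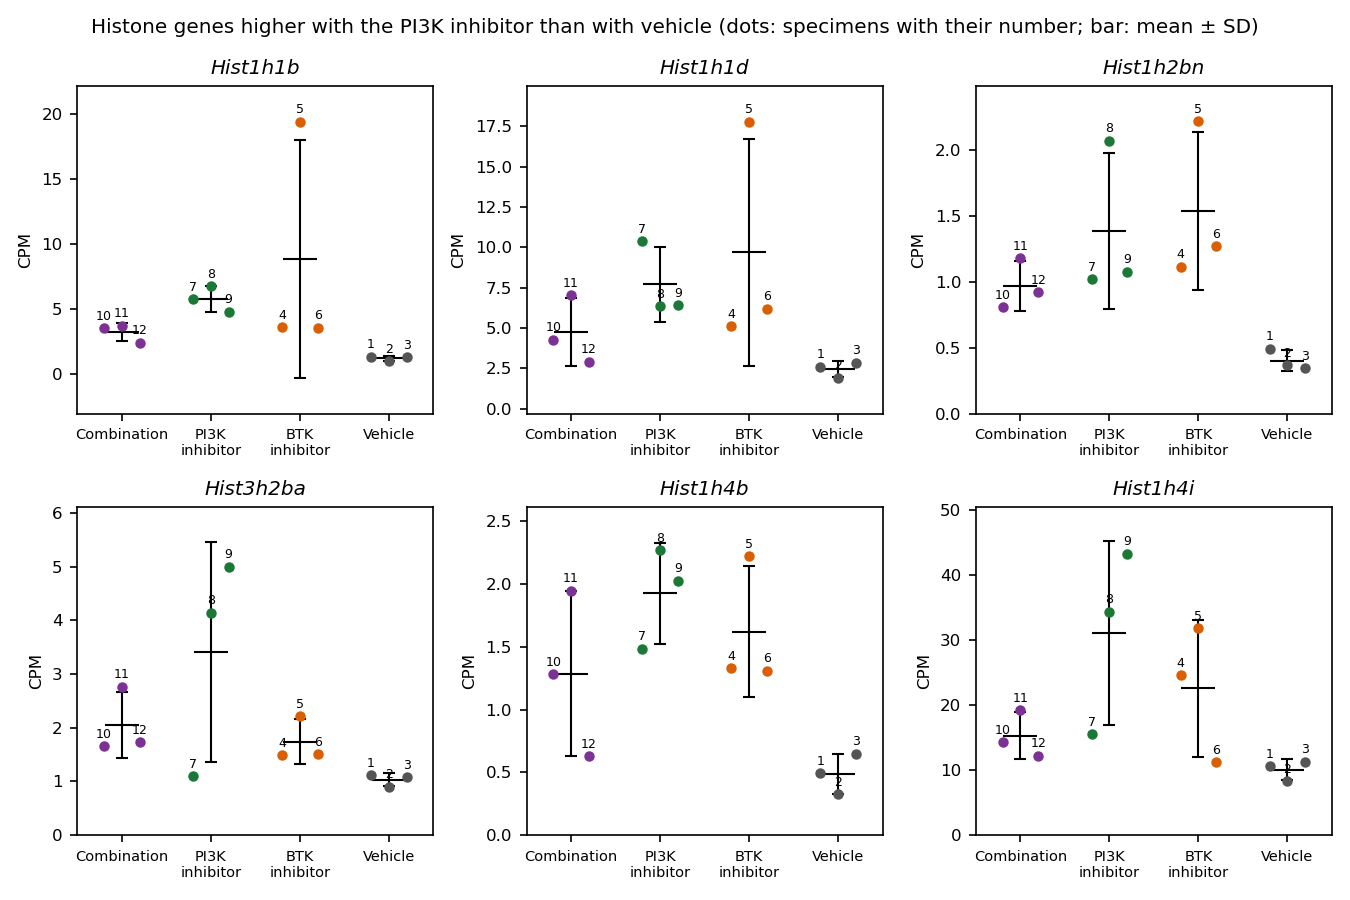
CPM (vertical axes, linear) of the 6 histone genes called higher with the PI3K inhibitor than with vehicle, by group, with 1 numbered dot per specimen and bars for the mean ± SD of 3. Vehicle specimens are low for every gene, and for Hist3h2ba PI3K inhibitor specimen 7, at 1.10 CPM, lies among them.

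With the BTK inhibitor, no histone gene passed the test against vehicle, while all 48 fitted differences were above 0 with a median of 1.37, beside -0.02 over all tested genes. Among tested genes of at most 1000 bases, 926 of 1023 were above 0, with a median of 0.995. edgeR called 0% of all tested genes here. At an unadjusted p under 0.05 it found 31 of the 48 members, against 24.7% of all tested genes, DESeq2 called 18 members (8.56% of all genes) and limma voom 14 (23.2% of all genes). In 30 members (62.5%) the BTK inhibitor specimens all lay above the vehicle specimens, against 8.92% of all tested genes and 22% of those of at most 1000 bases. The smallest p-values belonged to Hist1h1b, Hist2h4 and Hist1h2bn. Hist1h1b had 3.61, 19.4 and 3.58 CPM with the BTK inhibitor, against 1.34, 1.02 and 1.30 CPM with vehicle, with specimen 5 far above the others and no overlap. Its difference was 2.78 ± 0.586 (edgeR adjusted p = 0.136), and 1.56 without specimen 5. Hist2h4, an H4 gene of the chromosome 3 cluster, had 4.20, 59.8 and 0.874 CPM with the BTK inhibitor, against 0.805, 0.327 and 0.734 CPM with vehicle, and specimen 5 alone gave most of the group's sum. It differed by 5.06 ± 1.22 (edgeR adjusted p = 0.136), and by 2.00 without specimen 5. Only 4.86% of the 50-base windows of Hist2h4 occurred in another member.

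Hist1h2bn was more even, with 1.12, 2.22 and 1.27 CPM with the BTK inhibitor, against 0.492, 0.368 and 0.346 CPM with vehicle, and a difference of 1.83 ± 0.454 (edgeR adjusted p = 0.136). Its groups did not overlap. Hist1h1c stood apart from its type: it had 59.10, 23.02 and 32.23 CPM with the BTK inhibitor, against 43.02, 20.99 and 41.78 CPM with vehicle, and differed by 0.12. In specimen 5, where the H1 genes Hist1h1a, Hist1h1b, Hist1h1d and Hist1h1e had their highest value of the series, Hist1h1c was lower than in every specimen but vehicle specimen 2. By type, the median differences were 1.93 for H1, 1.21 for H2A, 0.79 for H2B, 1.44 for H3 and 1.94 for H4. Without specimen 5 the median over tested members was 0.90. Without specimen 6, whose title carries another date than those of the other specimens, it was 1.54 and edgeR called 26 members, against 29.4% of all genes.

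**Figure D3:**
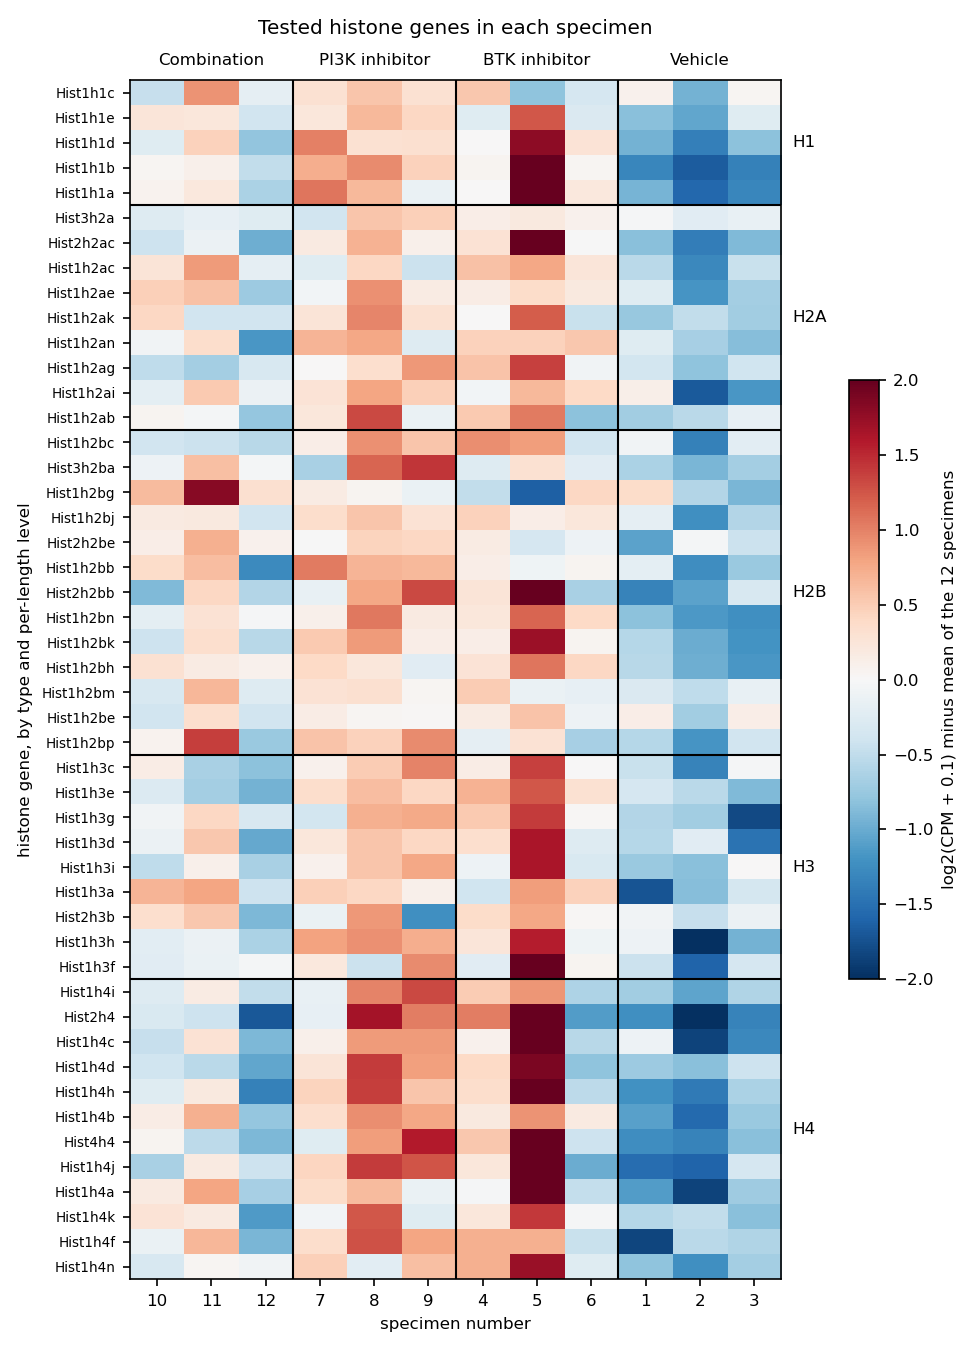
Each of the 48 tested histone genes (rows, by type and then by per-length level) in each specimen (columns, by group), coloured by log2(CPM plus a small constant) minus the gene's mean over the 12 specimens, with the colours capped at both ends. The median deviation of the members was -0.12, 0.26 and -0.57 in combination specimens 10 to 12, 0.23, 0.71 and 0.44 in PI3K inhibitor specimens 7 to 9, 0.23, 1.23 and -0.08 in BTK inhibitor specimens 4 to 6, and -0.58, -1.06 and -0.67 in vehicle specimens 1 to 3.

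With the combination, no histone gene passed the test against vehicle, and the differences were smaller, with a median of 0.79 beside 0.00 over all tested genes. edgeR called 0% of all tested genes, and 9 members had an unadjusted p under 0.05, against 4.91% of all tested genes. DESeq2 called 0 members (0.173% of all genes) and limma voom 4, Hist1h1b, Hist1h2bh, Hist1h2bn and Hist2h2be (9.66% of all genes). In 15 members (31.2%) the combination specimens all lay above the vehicle specimens, against 9.32% of all tested genes and 7.14% of those of at most 1000 bases. These were Hist1h1a, Hist1h1b and Hist1h1d of H1, Hist1h2ac and Hist1h2ak of H2A, Hist1h2bh, Hist1h2bk, Hist1h2bn, Hist2h2be and Hist3h2ba of H2B, Hist1h3f and Hist1h3g of H3, and Hist1h4a, Hist1h4i and Hist1h4n of H4. They were listed after their values were seen.

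The H2B gene Hist1h2bh had 1.14, 1.03 and 0.960 CPM with the combination, against 0.581, 0.408 and 0.346 CPM with vehicle. The groups did not overlap, and the difference was 1.22 ± 0.400 (edgeR adjusted p = 0.779). Hist1h4b had 1.28, 1.95 and 0.628 CPM with the combination, against 0.492, 0.327 and 0.648 CPM with vehicle, so that specimen 12 lay inside the vehicle range, and it differed by 1.37 ± 0.473 (edgeR adjusted p = 0.819). Hist1h2bn had 0.807, 1.18 and 0.923 CPM with the combination, against the vehicle values given above, without overlap, and differed by 1.26 ± 0.443 (edgeR adjusted p = 0.819). Hist1h2bg, another H2B gene, had 2.33, 5.43 and 1.85 CPM with the combination, against 1.92, 0.939 and 0.734 CPM with vehicle, and the groups overlapped. Hist2h2be, whose gene model is 2618 bases long, had 8.40, 12.7 and 8.16 CPM with the combination, against 3.62, 7.51 and 5.66 CPM with vehicle, and the groups did not overlap. The median difference was 0.94 for H1, 0.62 for H2A, 0.84 for H2B, 0.67 for H3 and 0.88 for H4, and 44 of the 48 members were above 0. Among tested genes of at most 1000 bases, 621 of 1023 were above 0, with a median of 0.09. Without combination specimen 11 the median over members was 0.55, and without specimen 12 it was 0.96.

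Fitted levels with the combination were below those of either single inhibitor for most members, but no member passed either test and edgeR called 0% of all tested genes in both. The direction depended on the fit. With a term for gene length in it, 26 of the 48 members were above 0 against the BTK inhibitor, where 7 were without the term. Against the PI3K inhibitor 35 were above 0 with the term, where 6 were without it. The medians then turned to 0.10 against the BTK inhibitor and 0.15 against the PI3K inhibitor. Other genes of at most 500 bases stayed at medians of -0.441 and -0.306 with that term, and the part of gene length was not tested. Against the BTK inhibitor the median difference was -0.70, with 11 members at an unadjusted p under 0.05 (20.2% of all genes), 3 calls by DESeq2 (4.2% of all genes) and 8 by limma voom (39% of all genes). In 6 members (12.5%) the combination specimens all lay below those of the BTK inhibitor, against 6.73% of all tested genes and 12.2% of those of at most 1000 bases. Hist1h3e had 0.712, 0.512 and 0.406 CPM with the combination, against 1.49, 2.22 and 1.11 CPM with the BTK inhibitor. The groups did not overlap, and the difference was -1.49 ± 0.412 (edgeR adjusted p = 0.186). Hist2h4 had 1.61, 1.49 and 0.554 CPM with the combination, against 4.20, 59.8 and 0.874 CPM with the BTK inhibitor, which overlapped. It differed by -4.11 ± 1.16 (edgeR adjusted p = 0.186), or by -1.04 without BTK inhibitor specimen 5. Hist2h2ac had 0.807, 1.03 and 0.517 CPM with the combination, against 1.38, 12.1 and 1.11 CPM with the BTK inhibitor, without overlap, and differed by -2.50 ± 0.774 (edgeR adjusted p = 0.186), or by -0.67 without BTK inhibitor specimen 5. Over all members, leaving that specimen out brought the median to -0.15, and leaving out BTK inhibitor specimen 6 brought 13 calls, against 26.8% of all genes.

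Against the PI3K inhibitor the median difference of the combination was -0.69, with 5 members at an unadjusted p under 0.05 (28.7% of all genes), 0 calls by DESeq2 (7.52% of all genes) and 20 by limma voom (41.8% of all genes). In 12 members the combination specimens all lay below those of the PI3K inhibitor, against 24.6% of all tested genes and 70% of those of at most 1000 bases. Hist1h3e had 1.15, 1.40 and 1.20 CPM with the PI3K inhibitor, above every combination specimen, and the difference of the combination was -1.20 ± 0.404 (edgeR adjusted p = 0.125). Hist1h4d had 1.09, 0.973 and 0.665 CPM with the combination, against 1.78, 4.01 and 2.66 CPM with the PI3K inhibitor, without overlap, and differed by -1.62 ± 0.578 (edgeR adjusted p = 0.125). For Hist1h2bc the values were 14.1, 13.6 and 12.5 CPM with the combination, against 20.2, 34.7 and 26.9 CPM with the PI3K inhibitor, again without overlap, with a difference of -1.02 ± 0.387 (edgeR adjusted p = 0.131). The fit of only the groups compared called 9 members (32.6% of all genes), leaving out BTK inhibitor specimen 5 gave 3 calls (19.3%) and leaving out specimen 6 gave 2 (13.9%). Between the single inhibitors, the PI3K inhibitor against the BTK inhibitor, the median was -0.02, edgeR called 0% of all genes and no member, 2 members had an unadjusted p under 0.05 (6.21% of all genes), and DESeq2 and limma voom called 0. Hist2h4, with 1.78, 6.55 and 4.18 CPM with the PI3K inhibitor, differed from the BTK inhibitor by -2.33 ± 1.06 (edgeR adjusted p = 0.745), and by 0.73 without BTK inhibitor specimen 5. Hist2h2ac differed by -1.61 and by 0.22 without that specimen, and Hist3h2ba by 1.01 (edgeR adjusted p = 0.745 for both).

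The interaction asks whether the combination differs from vehicle by more or less than the sum of the differences of the single inhibitors. It was called negative for 23 of the 48 members, meaning that the combination lay below that sum, and called positive for none. The 23 were read against 15.6% of all tested genes called lower, 27.6% called in either direction and 62.6% called lower among tested genes of at most 1000 bases. At an unadjusted p under 0.05 there were 34 members (43.1% of all genes). The smallest p-values belonged to Hist1h3e with -2.64 ± 0.575, Hist1h1b with -3.61 ± 0.793 and Hist2h4 with -6.84 ± 1.62 (edgeR adjusted p = 0.0202 for each). Next came Hist1h1d with -2.64 ± 0.671 (edgeR adjusted p = 0.0203), Hist1h1a with -3.31 ± 0.866 and Hist4h4 with -4.07 ± 1.06 (both 0.0207). Of the 23, Hist1h3h, Hist1h4j and Hist4h4 were below the filter's minimum in all 3 vehicle specimens (Hist4h4 had counts of 6, 6 and 9) and passed the filter only through treated groups, so their values are descriptions. Others of the 23 reached it in only some vehicle specimens and needed treated specimens as well. Among them were Hist1h3e (vehicle counts of 15, 14 and 10), Hist2h4 (18, 8 and 17), Hist1h2bn (11, 9 and 8) and Hist1h4b (11, 8 and 15). Values of such members are descriptions too. For Hist1h1b the values behind the interaction were 3.56, 3.74 and 2.44 CPM with the combination, which lay below all PI3K inhibitor specimens and above all vehicle specimens. Hist1h1a had 1.61, 1.79 and 0.960 CPM with the combination, 3.35, 2.47 and 1.39 with the PI3K inhibitor, 1.54, 8.28 and 1.79 with the BTK inhibitor and 0.760, 0.449 and 0.562 with vehicle. Hist4h4 had 0.807, 0.512 and 0.369 CPM with the combination, 0.636, 1.47 and 2.53 with the PI3K inhibitor, 1.17, 4.85 and 0.556 with the BTK inhibitor and 0.268, 0.245 and 0.389 with vehicle. In both genes the single inhibitor groups spread widely and overlapped the combination group. The median interaction was -2.09, and Hist1h2bg was the 1 member above 0. No member was called when vehicle specimen 2, PI3K inhibitor specimen 8 or 9, or combination specimen 11 or 12 was left out. The share of all genes called in those fits is not given here either. The 3 comparisons with vehicle and the interaction share the same 3 vehicle specimens.

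Gene length moved with these differences. The tested members had a median length of 487.5 bases in the count table, against 2835 bases over all tested genes, and 46 of the 48 were at most 1000 bases long. Among other genes of at most 500 bases the median log2 difference from vehicle was 0.11 with the combination, 1.40 with the PI3K inhibitor and 1.58 with the BTK inhibitor. The 29 histone genes of that length had medians of 0.79 with the combination, 1.61 with the PI3K inhibitor and 1.47 with the BTK inhibitor. In genes over 500 and up to 1000 bases, the 17 histone genes had medians of 0.73 with the combination, 1.22 with the PI3K inhibitor and 1.05 with the BTK inhibitor, against 0.07, 1.06 and 0.91 for the 832 other genes. In genes over 4000 bases the medians were -0.02 with the combination, -0.65 with the PI3K inhibitor and -0.38 with the BTK inhibitor. The long members Hist1h2be, of 2510 bases, and Hist2h2be had a median difference of 0.40 with the combination, 0.47 with the PI3K inhibitor and 0.35 with the BTK inhibitor. Over all tested genes, the slope of a gene's log2 deviation on its length, per doubling of length, was 0.09, 0.25 and 0.29 in combination specimens 10 to 12, -0.10, -0.37 and -0.38 in PI3K inhibitor specimens 7 to 9, -0.28, -0.35 and 0.18 in BTK inhibitor specimens 4 to 6, and 0.15, 0.40 and 0.12 in vehicle specimens 1 to 3. BTK inhibitor specimen 6, the lowest of its group in all 5 type sums, was the specimen of its group with a slope above 0.

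**Figure D4:**
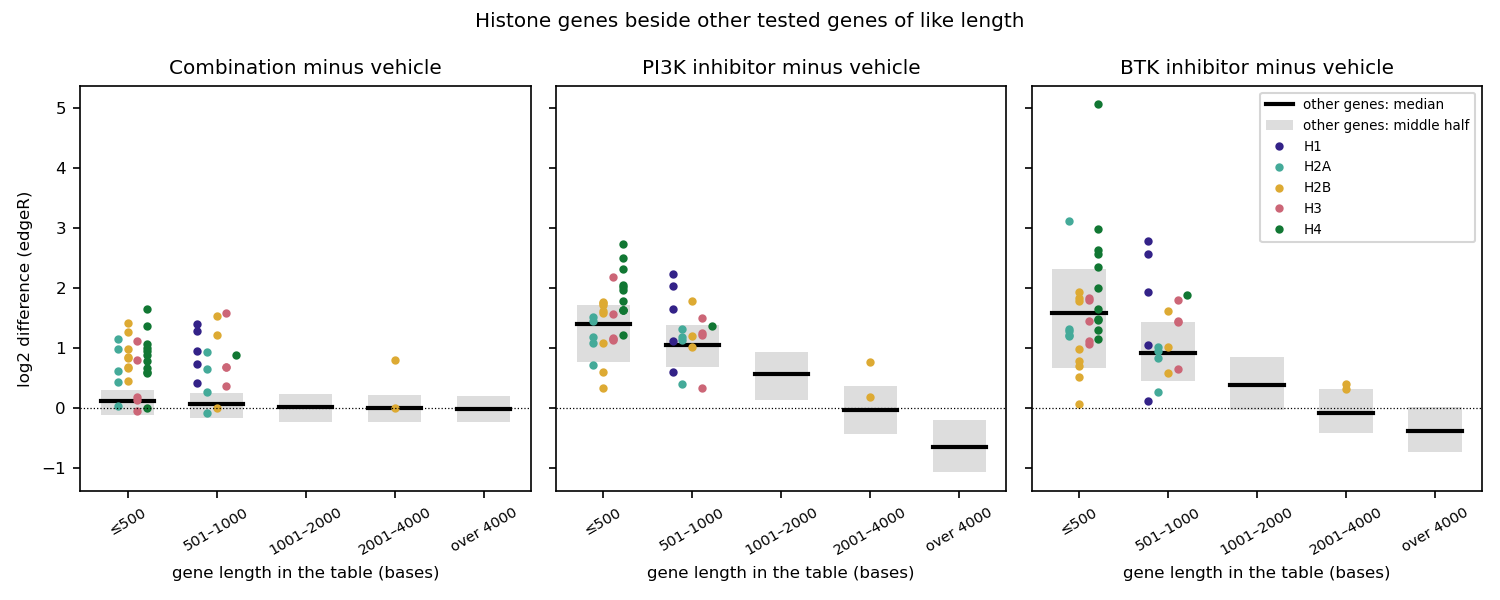
Log2 difference from vehicle (vertical axes, edgeR) by gene length in the count table (horizontal axes, bases), with a black line for the median and a grey box for the middle 50% of other tested genes, and 1 dot per histone gene coloured by type. In genes of at most 500 bases the median of other genes is 0.11 with the combination, 1.40 with the PI3K inhibitor and 1.58 with the BTK inhibitor.

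A smooth term for gene length in each specimen was added to the fit to set members beside other genes of like length. With it, the median difference of the members was 0.70 with the combination, 0.42 with the PI3K inhibitor and 0.49 with the BTK inhibitor, against 0.79, 1.41 and 1.37 without it. The term did not bring all short genes level. Among other genes of at most 500 bases, medians were -0.017 with the combination, 0.307 with the PI3K inhibitor and 0.415 with the BTK inhibitor. The 29 histone genes of that length had 0.718, 0.474 and 0.496 in the same order. Values with the term, by type too, may thus still hold a part that goes with length. Members above 0 with the term were 42 with the combination, 41 with the PI3K inhibitor and 40 with the BTK inhibitor. At an unadjusted p under 0.05 there were 10 members with the combination (6.98% of all genes), 5 with the PI3K inhibitor (22.1%) and 9 with the BTK inhibitor (19.6%). None of the 6 calls with the PI3K inhibitor was kept, and edgeR called 0% of all tested genes there: Hist1h1b then differed by 1.33, Hist1h4b by 0.89, Hist1h1d by 0.81, Hist1h2bn by 0.64, Hist3h2ba by 0.47 and Hist1h4i by 0.42. For Hist1h1c the difference was below 0 with both single inhibitors, at -0.33 with the PI3K inhibitor and -0.56 with the BTK inhibitor. Hist3h2a, the leading H2A gene, moved to -0.76 with the PI3K inhibitor. With the combination the leading members changed little, with Hist1h4b at 1.26, Hist1h2bn at 1.14 and Hist1h2bh at 1.10. By type, the length-adjusted medians were 0.87 for H1, 0.49 for H2A, 0.72 for H2B, 0.46 for H3 and 0.79 for H4 with the combination, 0.81, 0.10, 0.47, 0.11 and 0.82 with the PI3K inhibitor, and 1.05, 0.33, 0.22, 0.51 and 0.92 with the BTK inhibitor. H1 and H4 had the highest medians of the 5 types in each of these comparisons. The median interaction was -0.31 with the length term. Other genes of at most 500 bases then had a median of -0.776, against -0.44 for the 29 histone genes of that length. None of the 23 calls was kept, against 0.00785% of all genes called, and 6 members had an unadjusted p under 0.05 (28.6% of all genes).

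**Figure D5:**
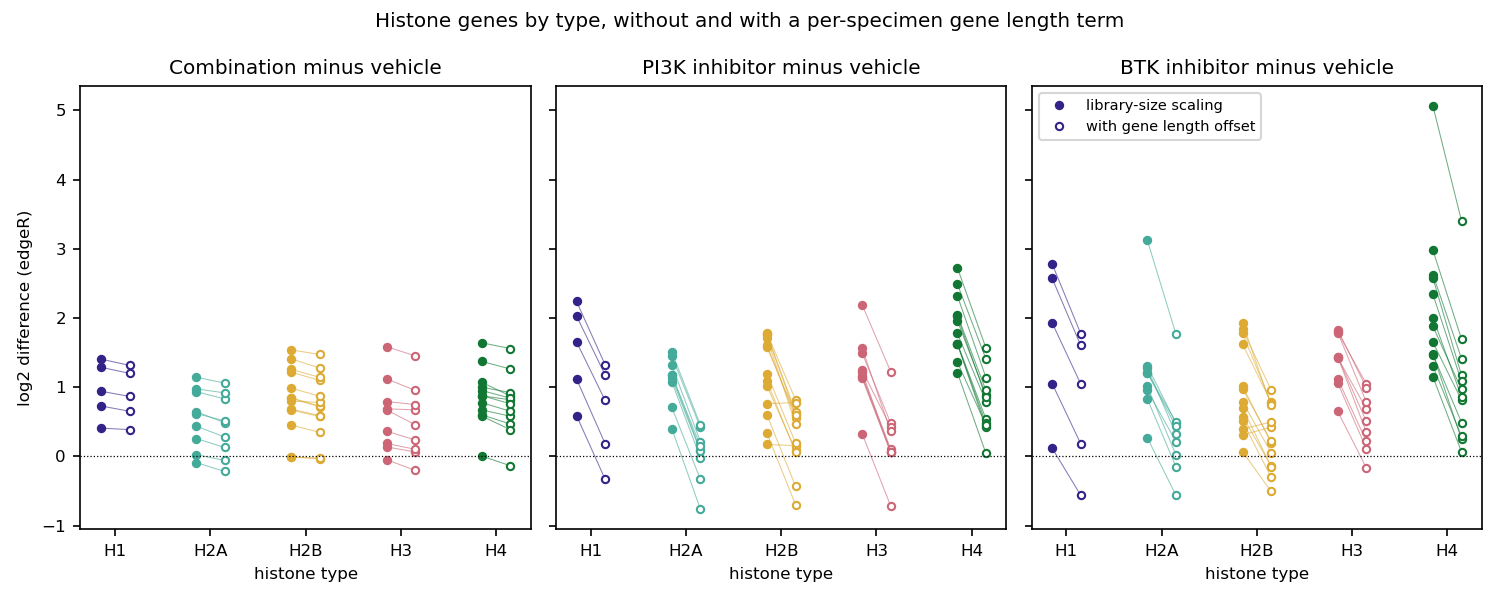
Log2 difference from vehicle (vertical axes, edgeR) of each tested histone gene by type, with filled dots for the fit with library-size scaling alone and open dots for the fit that adds a gene length term, joined by a line per gene. The lines fall steeply with the PI3K inhibitor (median 1.41 against 0.42 with the term) and the BTK inhibitor (1.37 against 0.49) and little with the combination (0.79 against 0.70).

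How the transcripts end was compared as a further description. In 19 tested members whose annotated transcript runs more than 100 bases past the stem-loop, the median difference was 0.88 with the combination, 1.25 with the PI3K inhibitor and 1.44 with the BTK inhibitor. In 14 whose transcript ends within 100 bases of it, the medians were 0.81 with the combination, 1.502 with the PI3K inhibitor and 1.448 with the BTK inhibitor. Other RNAs known to lack a poly(A) tail, of which 6 were tested, had medians of 0.11 with the combination, 1.56 with the PI3K inhibitor and 2.91 with the BTK inhibitor. Their medians with the length term were -0.006, 0.954 and 1.599 in that order. In BTK inhibitor specimens 4 to 6 their sum, mostly Rn45s, was 5905, 280400 and 2178 CPM, and Rpph1 had 4.20, 29.7 and 0.993 CPM. Specimen 5 thus stood far above the others. The part of poly(A) tails in these differences was not tested.

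Histone variant genes lie outside the clusters, and most are polyadenylated and made throughout the cell cycle. Counts of calls in the lists that follow are read against 4.84% of all tested genes called higher with the PI3K inhibitor, and no call was kept with the length term, where edgeR called no gene in that comparison. Of 11 variant genes tested, 2 rose with the PI3K inhibitor: Cenpa, the centromeric H3 variant, by 1.36 ± 0.394 (edgeR adjusted p = 0.0456), and H2afv, an H2A variant, by 1.22 ± 0.362 (edgeR adjusted p = 0.0477). Their list median was 0.07 with the combination, 0.83 with the PI3K inhibitor and 0.74 with the BTK inhibitor. Cenpa had 181.4, 169.6 and 151.3 CPM with the combination, 217.0, 337.0 and 413.0 with the PI3K inhibitor, 249.2, 553.7 and 164.2 with the BTK inhibitor and 125.1, 102.8 and 147.8 with vehicle. Among 18 genes of histone mRNA transcription and 3′ end processing, only Slbp, the stem-loop binding protein, rose with the PI3K inhibitor, by 0.99 ± 0.295 (edgeR adjusted p = 0.0490), with 201.1, 257.8 and 296.5 CPM, against 107.8, 129.3 and 144.0 CPM with vehicle. Of 21 histone chaperone and deposition genes, Hat1, which acetylates new H4, rose by 1.25 ± 0.319 (edgeR adjusted p = 0.0407) and Asf1a, a chaperone of H3 and H4, by 1.04 ± 0.276 (edgeR adjusted p = 0.0412). Of 36 DNA replication genes 10 rose with the PI3K inhibitor, led by Tk1, the thymidine kinase of S phase (1.26 ± 0.254), Rfc4, a clamp loader subunit (1.53 ± 0.325), and Gins1, a helicase subunit (1.22 ± 0.266), with edgeR adjusted p of 0.0388, 0.0388 and 0.0394. Of 20 mitosis genes 1 rose, the kinase Cdk1, by 1.11 ± 0.283 (edgeR adjusted p = 0.0407). No gene of these lists passed with the combination or the BTK inhibitor.

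With the combination, 36 of 36 DNA replication genes and 20 of 20 mitosis genes had a difference above 0, with medians of 0.42 and 0.24, and 19 of 21 chaperone genes did, with a median of 0.20. Summed DNA replication genes ranged over 5707 to 6658 CPM with the combination, 6159 to 8339 with the PI3K inhibitor, 5360 to 6471 with the BTK inhibitor and 3594 to 5207 with vehicle, so every treated specimen lay above the vehicle range. Red-cell markers moved alongside: 10 of 10 tested were above 0 with the combination, with a median of 1.10. Of these, 7 had an unadjusted p under 0.05 (4.91% of all tested genes), with 0 called by edgeR. With the PI3K inhibitor 10 of 10 were above 0, with a median of 1.29, and edgeR called 4 higher (4.84% of all tested genes). With the BTK inhibitor 7 of 10 were above 0, with a median of 0.49. Their sum ranged over 4284 to 4563 CPM with the combination, 3335 to 6498 with the PI3K inhibitor, 2246 to 3018 with the BTK inhibitor and 866.2 to 3081 with vehicle. Mature neutrophil markers summed to 60190 to 76940 CPM with the combination, 101900 to 199500 with the PI3K inhibitor, 82740 to 216100 with the BTK inhibitor and 87290 to 113400 with vehicle, so the combination specimens lay below every other. Marker by marker, 0 of 12 neutrophil genes were above 0 with the combination, 4 with the PI3K inhibitor and 5 with the BTK inhibitor. Their medians were -0.57, -0.31 and -0.26, and edgeR called 2 lower with the PI3K inhibitor (5.82% of all tested genes). Monocyte and macrophage markers above 0 were 0 of 10 with the combination, 3 with the PI3K inhibitor and 1 with the BTK inhibitor. Their medians were -0.47, -0.99 and -0.31, and edgeR called 3 lower with the PI3K inhibitor (5.82% of all tested genes). Their sum ranged over 1452 to 1890 CPM with the combination, 1450 to 1949 with the PI3K inhibitor, 1468 to 2322 with the BTK inhibitor and 2088 to 2485 with vehicle. B-lineage precursor markers were above 0 in 12 of 12 with the BTK inhibitor, with a median of 0.92 and 7 at an unadjusted p under 0.05 (24.7% of all tested genes). The B-lineage sums of 244.5 to 580.2 CPM with the BTK inhibitor and 157.9 to 335.0 CPM with vehicle overlapped. Of these 12 markers, 9 were above 0 with the combination and 7 with the PI3K inhibitor (medians 0.27 and 0.28). Granulocyte-monocyte precursor markers above 0 were 0 of 8 with the combination, 5 with the PI3K inhibitor and 4 with the BTK inhibitor. Their medians were -0.46, 0.31 and -0.002. For stem and progenitor markers, 2, 1 and 2 of 6 tested were above 0 in that order, with medians of -0.07, -0.36 and -0.09. The part of these cell types in the histone differences was not tested.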

How the data were processed

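RNA of bone marrow mononuclear cells was sequenced from SMART-Seq v4 and Nextera XT libraries of total RNA, per the labels' protocols. The authors deposited 1 table of read counts per gene, made with STAR, featureCounts and the mm10 build, per the submitters' processing notes. The sources used here give no versions and no strand or multi-mapping settings, so reads of overlapping or antisense genes cannot be told apart. The 24 deposited samples are 12 specimens with 2 samples each, and the table has 1 count column per specimen. Nothing states that specimens are separate mice, so the spread behind each p-value may be technical.

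All genes were fitted together with edgeR 4.0.16 (R 4.3.3) on the counts: filterByExpr (smallest count 10, total 15), TMM scaling, 1 mean per group, robust quasi-likelihood tests, Benjamini-Hochberg over 12742 genes, threshold 0.05. Log2 differences carry SEs. CPM used the tested genes' library sizes times the TMM factors, and RPKM is CPM per kilobase of the table's gene length. Alternatives were DESeq2 1.42.0, limma 3.58.1 voom with quality weights, RLE or upper-quartile scaling, no filter, Rn45s left out, a spline of log gene length per specimen (5 degrees of freedom) as an offset, fits of only the groups compared, and each specimen left out. In a further fit the counts of each type were summed first. The fits were tested on simulated data. Counts of specimens of a group differed by more than sampling noise in every pair.

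Members and lists were chosen with earlier results of these data known. Named members were the 3 with the highest per-length level of each type, up to 6 past the threshold per comparison and direction, or else the 3 with the smallest p, and up to 3 past the threshold per other list. Other members named were chosen after their values were seen. Sequences are from GENCODE M21 and RefSeq.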

Additional observations from a re-analysis of the deposited data

Results flagged for a closer look

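A difference between the effects of the inhibitors alone and together was tested as an interaction, and it passed the threshold for 23 histone genes by edgeR's quasi-likelihood test, all of them with a negative value. The 6 with the smallest p had log2 values of -2.64 for Hist1h3e, -3.61 for Hist1h1b, -6.84 for Hist2h4, -2.64 for Hist1h1d, -3.31 for Hist1h1a and -4.07 for Hist4h4. Hist4h4 was below the filter's minimum in all 3 vehicle specimens and passed the filter only through treated groups, so its value is a description. Hist1h3e and Hist2h4 reached the minimum in only some vehicle specimens and needed treated specimens as well, so their values are descriptions too. In each of the 6 genes the combination lay below the sum of the single-inhibitor differences. With the gene length term none of the 23 passed. Among other genes of at most 500 bases the median interaction was -2.97, against -2.33 for the 29 histone genes of that length. BTK inhibitor specimen 5, in which Rn45s took 15.4% of counts, held the highest value of Hist1h3e, Hist1h1b, Hist2h4, Hist1h1d, Hist1h1a and Hist4h4. Without it 16 histone genes passed, against 27.8% of all genes. The values were then -2.40 for Hist1h3e, -2.39 for Hist1h1b, -3.77 for Hist2h4, -1.91 for Hist1h1d, -2.23 for Hist1h1a and -2.92 for Hist4h4. The cause was not tested.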

How the results depend on the processing

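RLE scaling, upper-quartile scaling and leaving out Rn45s kept all 6 PI3K inhibitor calls and all 23 interaction calls. DESeq2 called 18 members with the BTK inhibitor against vehicle (8.56% of all genes) and 19 with the PI3K inhibitor against vehicle (25%). It called 3 with the combination against the BTK inhibitor (4.2%). Against vehicle, limma voom called 14 with the BTK inhibitor (23.2% of all genes), 29 with the PI3K inhibitor (37.4%) and 4 for both drugs together (9.66%). It called 8 and 20 with the combination against the BTK and the PI3K inhibitor (39% and 41.8% of all genes). Fits of only the groups compared called 26 with the PI3K inhibitor against vehicle and 9 with the combination against it. With the gene length term 0 calls were left with the PI3K inhibitor and 0 in the interaction, and with BTK inhibitor specimen 5 also left out 2 (1 of them among the 6) and 0, against 18.6% and 4.16% of all genes.

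Medians with the length term, and then also without BTK inhibitor specimen 5, were 0.49 and 0.40 with the BTK inhibitor, 0.42 and 0.43 with the PI3K inhibitor, 0.10 and 0.22 for the combination against the BTK inhibitor, 0.15 and 0.15 for it against the PI3K inhibitor, and -0.31 and -0.21 for the interaction. Counts summed by type gave a median of 0.98 with the PI3K inhibitor. For the PI3K against the BTK inhibitor, Hist2h4 reversed to 0.73 without BTK inhibitor specimen 5 and to 0.28 with the length term too, and Hist2h2ac to 0.22 without that specimen and to 0.002 by limma voom. Over the specimens left out singly, Hist2h4 ranged over -2.92 to 0.73 and Hist2h2ac over -2.12 to 0.22. The causes were not tested.

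Leaving out 1 specimen at a time, calls ranged over 0 to 26 with the BTK inhibitor, 0 to 27 with the PI3K inhibitor, 0 to 0 with the combination, 0 to 13 and 0 to 3 for the combination against the BTK and the PI3K inhibitor, 0 to 0 between the single inhibitors, and 0 to 32 for the interaction. For the counts of 0 and the 32, the share of all genes called is not given here, so they are not read as results about histone genes. Medians ranged over 0.90 to 1.54 with the BTK inhibitor, 1.29 to 1.45 with the PI3K inhibitor, 0.55 to 0.96 with the combination, -0.998 to -0.15 and -0.96 to -0.49 for the combination against the BTK and the PI3K inhibitor, -0.31 to 0.49 for the PI3K against the BTK inhibitor, and -2.40 to -1.57 for the interaction.

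No paired analysis was possible because the groups share no replicate number. Depth limits the low members: in vehicle specimens only 20 of the 48 tested members reached the filter's minimum in all 3, so a change in the rest was weakly measured, and near-identical copies limit single members.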
